A study of Mus musculus with 4 samples.

Results

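The 10 genes described here encode enzymes that add or remove methyl groups on lysine 36 of histone H3 (H3K36) in mouse, and they were taken by symbol from a table of 34745 genes, by what they encode and not by a measured threshold, although earlier results of these data were known. The writers are Setd2, Nsd1, Ash1l, Setmar and Smyd2, and the erasers are Kdm2a, Kdm2b, Kdm4a, Kdm4b and Kdm4c. RNA was sequenced from cultures of T helper 17 (Th17) cells, the CD4+ T cell type that makes interleukin 17. Naive CD4+ T cells from spleens of C57BL/6 mice were kept for 3 days under Th17 polarizing conditions, in both genotypes. Wild-type (WT) mice gave 2 libraries, replicates 13 and 15, and mice whose genotype is written Setd2-CD4 cre gave 2, replicates 22 and 24, whose titles carry the letters ko. The part of Setd2 that was altered, the state of its alleles, whether the WT mice carried Cre and the age and sex of the mice are not stated in the labels used here. Cre driven by Cd4 sequences acts in T cells from the thymic stage at which CD4 appears, so other cells in a culture would keep Setd2.

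H3K36 methylation is laid down mostly in transcribed genes. Setd2 travels with elongating RNA polymerase II and places the trimethyl mark, whereas Nsd1 and Ash1l place the mono- and dimethyl marks. Kdm2a and Kdm2b remove the lower methyl states and bind unmethylated CpG dinucleotides through a zinc finger, while the Kdm4 enzymes remove the trimethyl mark here and on lysine 9 of the same histone. Proteins that read the mark guide DNA methylation, splicing, repair and the silencing of start sites inside genes.

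The libraries held 11007343 to 12518415 counts, and all 10 genes passed the filter on low counts, as did 12927 genes in all. Values are CPM, read counts relative to the total of the library, scaled by the trimmed mean of M-values (TMM), differences are log2 fold changes of Setd2-CD4 cre over WT from edgeR's quasi-likelihood test, and p-values were adjusted by Benjamini-Hochberg over all genes tested, with a threshold of 0.05. T cell and Th17 markers were present in all libraries (summed level 3116 to 3550 CPM over 11 genes). The 14 B cell markers summed to 229 to 268 CPM in WT and 561 to 798 CPM in Setd2-CD4 cre, with 12 of 14 higher and none at 0 in any library. The 8 CD8 T and natural killer markers summed to 83.3 to 99.9 CPM in WT and 111 to 202 CPM in Setd2-CD4 cre. Of 6 tested, Klrd1 (13.5 and 16.1 against 59.1 and 53.5 CPM) and Klre1 passed as higher and none as lower, and Cd8a and Cd8b1 overlapped between genotypes. The 11 dendritic and myeloid markers, 1 of them at 0 in every library, summed to 47.8 to 48.0 and 55.8 to 64.8 CPM. Of 7 tested, Flt3 passed as higher and none as lower, while Itgax, Lyz2 and Ly6g lay lower without passing. In bulk RNA, fewer cells of a type and less RNA per cell cannot be told apart, and the part of other cell types in the differences below was not tested. The labels do not say whether the 2 libraries of a genotype came from separate animals or cultures, so the spread behind the p-values may be technical only.

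Setd2 RNA remained at 82.4% of its WT level in Setd2-CD4 cre cultures, and the genes whose difference passed the test were the erasers Kdm2b and Kdm4a, both higher. Kdm2b stood 1.49-fold and Kdm4a 1.34-fold above WT. None of the 5 writers passed, although Setd2 and Smyd2 lay lower in both Setd2-CD4 cre libraries than in either WT library. Thus 2 of 10 genes (20%) were called higher and 0 of 10 lower, where 16.2% of all genes tested were called higher and 14.5% lower. Of all called genes 52.7% were higher, a share that became 37.4% with upper-quartile factors, 32.9% with library totals and 31.6% by limma-trend on log2(FPKM + 1), settings that moved the median of all genes to -0.12, -0.16 and -0.12. By unadjusted edgeR p, 4 of the 10 were below 0.05, 2 of them lower. The share of all genes below it was not counted, but it cannot be smaller than the 3974 of 12927 called after adjustment. The count of 4 is thus not read as a result about the 10 genes. The genotypes did not overlap for 6 of 10 genes (60.0%), 4 of them lower and 2 higher in Setd2-CD4 cre, against 70.7% of all genes tested. The shares called higher, called lower and not overlapping thus do not stand far from their backgrounds. The median log2 fold change was -0.05 over the 10 genes and -0.01 over all genes tested.

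**Figure D1:**
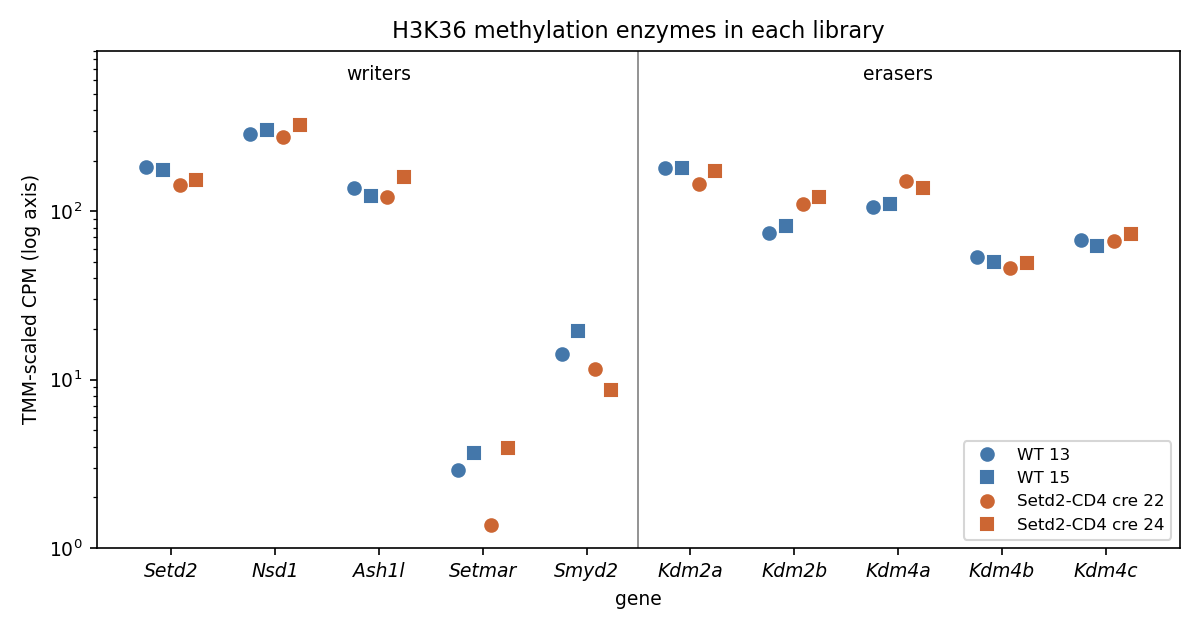
TMM-scaled CPM (log axis) of the 5 writers and 5 erasers in each of the 4 libraries, blue for WT and orange for Setd2-CD4 cre. Setd2, Smyd2, Kdm2a and Kdm4b sit lower and Kdm2b and Kdm4a higher in both orange libraries than in either blue one, and Setmar lies between 1.36 and 3.94 CPM.

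**Figure D2:**
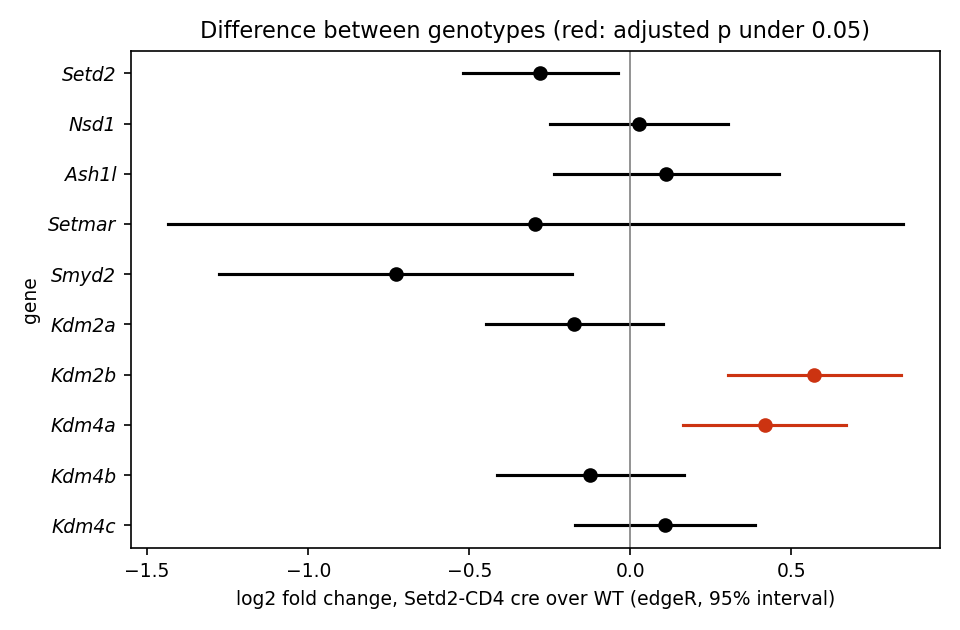
Log2 fold change of each gene, Setd2-CD4 cre over WT, with the 95% interval from edgeR, in red where the adjusted p was under 0.05. Kdm2b (0.57) and Kdm4a (0.42) are the genes in red, and Setmar has the widest interval (-1.44 to 0.85).

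Promoter windows are shown for the gene altered by design and for the start of the called eraser Kdm2b that faces a second gene, with Kdm4a, the other called eraser, for comparison. CG dinucleotides, the sites that the Kdm2a and Kdm2b zinc finger binds when unmethylated, are in capitals, and CG reads the same on both strands. Each window runs from 250 bases before to 50 after a RefSeq start site, 5′ to 3′ in the direction of transcription (RefSeq, GRCm38.p6). They lie at chr9:110532347-110532646 on the plus strand for Setd2, chr5:122989050-122989349 on the minus strand for Kdm2b and chr4:118179994-118180293 on the minus strand for Kdm4a.
Setd2: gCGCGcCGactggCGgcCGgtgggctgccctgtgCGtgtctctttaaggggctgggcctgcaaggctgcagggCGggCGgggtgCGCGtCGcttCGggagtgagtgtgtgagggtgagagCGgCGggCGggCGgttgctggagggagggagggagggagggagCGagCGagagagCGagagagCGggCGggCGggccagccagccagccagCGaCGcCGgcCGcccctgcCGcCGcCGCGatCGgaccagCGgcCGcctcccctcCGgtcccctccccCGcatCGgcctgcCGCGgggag
Kdm2b: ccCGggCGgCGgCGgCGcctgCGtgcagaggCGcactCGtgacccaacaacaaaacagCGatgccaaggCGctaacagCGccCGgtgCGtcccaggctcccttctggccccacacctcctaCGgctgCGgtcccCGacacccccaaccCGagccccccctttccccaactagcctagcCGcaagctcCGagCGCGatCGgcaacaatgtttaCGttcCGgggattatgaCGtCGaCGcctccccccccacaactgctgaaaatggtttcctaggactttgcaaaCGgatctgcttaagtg
Kdm4a: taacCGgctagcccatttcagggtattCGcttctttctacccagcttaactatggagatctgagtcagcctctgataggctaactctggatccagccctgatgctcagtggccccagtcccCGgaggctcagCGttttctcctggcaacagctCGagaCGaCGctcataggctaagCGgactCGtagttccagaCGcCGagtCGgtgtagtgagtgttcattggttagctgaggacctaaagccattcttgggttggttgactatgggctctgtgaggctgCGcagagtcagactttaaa
CG stood 38 times in the Setd2 window, 28 times in that of Kdm2b and 13 times in that of Kdm4a, more than in 95.05%, 85.8% and 62.1% of the 32851 windows of the same length. The windows of the erasers that rose thus differed in CG content, and the 3 other Kdm2b windows held 18, 47 and 49. In all, 6 of the 10 genes matched a window by symbol.

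Setd2 (ENSMUSG00000044791, chromosome 9, 110532597 to 110618633, plus strand, GRCm38) had 2408 and 2316 counts in WT 13 and 15 and 1476 and 1668 in Setd2-CD4 cre 22 and 24. Scaled, these were 184 and 176 CPM against 144 and 153 CPM. Both Setd2-CD4 cre libraries lay below both WT libraries. The fitted level was 82.4% of WT, with a 95% interval of 0.698 to 0.974 times the WT level and an edgeR adjusted p of 0.0748. The log2 fold change of -0.28 became -0.39 with upper-quartile factors (edgeR adjusted p = 0.0242) and -0.44 with cyclic loess scaling (limma-voom adjusted p = 0.0188). Relative to the median of all genes these were -0.27 and -0.44. With Setd2-CD4 cre 24 left out, edgeR gave -0.32 (adjusted p = 0.0105), whereas the threshold was missed with WT 13 (-0.25, 0.393), WT 15 (-0.31, 0.310) or Setd2-CD4 cre 22 left out (-0.23, 0.0695), with no filter (0.0848) and by DESeq2 (-0.27, adjusted p = 0.140). A count summed over a whole gene does not show whether some exons were missing from the transcripts.

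Inside Setd2 lies a separate gene model on the same strand, Gm42763 (110543211 to 110545297), which GENCODE M21 classes as a transcript yet to be tested by experiment. It fills 16.6% of intron 1 of the longest coding transcript, which has 21 exons, shares no base with an annotated Setd2 exon and ends 2 bases before exon 2. Gm42763 had 5 and 4 counts in WT (exact Poisson 95% intervals 1.62 to 11.7 and 1.09 to 10.2, counting error only) and 39 and 45 in Setd2-CD4 cre (27.7 to 53.3 and 32.8 to 60.2). The libraries of the genotypes were far apart, and the gene rose (log2 fold change 3.49, SE 0.47, edgeR adjusted p = 0.00219). Within a library, Setd2 had 482 and 579 counts per Gm42763 count in WT, against 37.8 and 37.1 in Setd2-CD4 cre, a ratio that needs no scaling between libraries. Whether the Gm42763 counts come from a transcript of its own or from intron 1 of Setd2 was not tested.

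**Figure D3:**
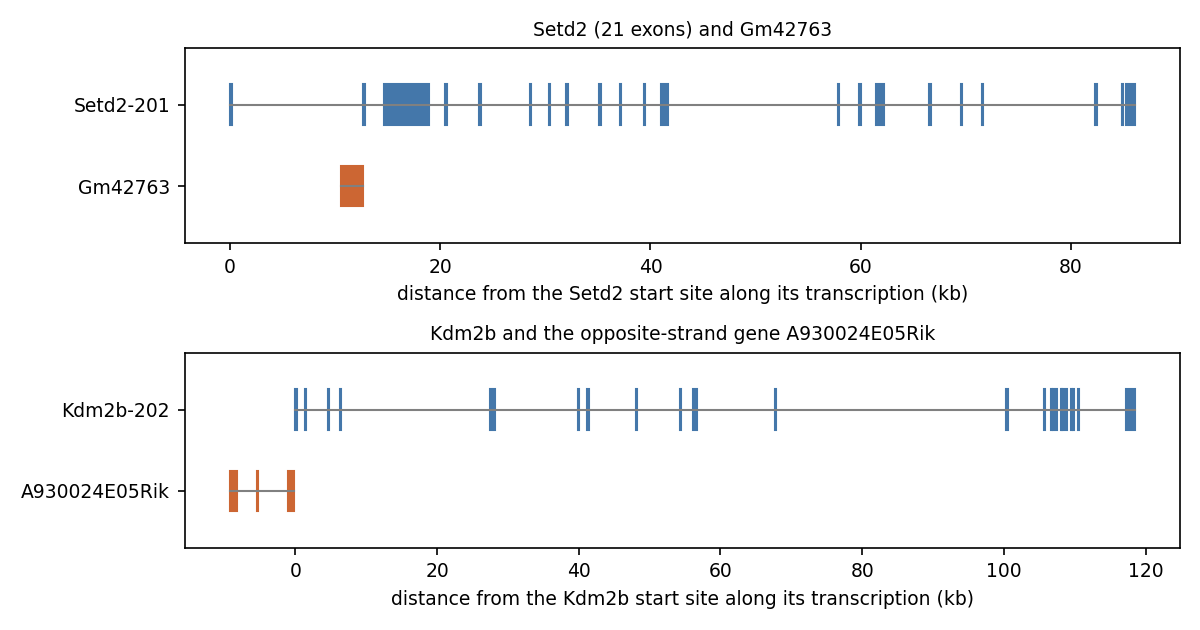
Exons (boxes, drawn at no less than 0.15 kb) of Setd2 with Gm42763, and of Kdm2b with A930024E05Rik, by distance in kb from the start site of Setd2 or Kdm2b along its direction of transcription. Gm42763 stands just before exon 2 of Setd2, and A930024E05Rik runs the opposite way from the start of Kdm2b.

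Of the other writers, Nsd1, a dimethyltransferase gene named after its nuclear receptor partners, stood at 288 and 303 CPM in WT, against 276 and 327 CPM in Setd2-CD4 cre. The ranges overlapped, and the log2 fold change of 0.03 had a 95% interval of -0.25 to 0.30 (edgeR adjusted p = 0.878). Ash1l, the mammalian counterpart of the trithorax-group gene ash1 of flies, stood at 138 and 123 CPM in WT, against 122 and 161 CPM in Setd2-CD4 cre (0.11, interval -0.24 to 0.46, edgeR adjusted p = 0.595). The range in Setd2-CD4 cre enclosed that of WT for both genes, and the sign of both differences depended on the scaling (with library totals, -0.12 for Nsd1 and -0.04 for Ash1l, or 0.04 and 0.12 above the median of all genes). Without Setd2-CD4 cre 22 the Ash1l difference passed (0.31, edgeR adjusted p = 0.0218), and without Setd2-CD4 cre 24 it was -0.10.

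Smyd2 (ENSMUSG00000026603, chromosome 1, 189880492 to 189922363, minus strand), which encodes a largely cytoplasmic methyltransferase with the tumour suppressor p53 among its substrates, was the writer with the largest fitted difference. It stood at 14.1 and 19.3 CPM in WT (185 and 254 counts), against 11.6 and 8.62 CPM in Setd2-CD4 cre (119 and 94 counts). Every WT value was above every Setd2-CD4 cre value, and the log2 fold change of -0.73 (SE 0.24) lay at the threshold by edgeR (adjusted p = 0.0505). It was -0.88 with library totals (edgeR adjusted p = 0.0258), or -0.72 relative to the median of all genes, as in the TMM fit. By limma-voom after cyclic loess it was -0.51 (adjusted p = 0.141). The value was -0.95 without Setd2-CD4 cre 22 and -0.49 with WT 15 left out.

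Setmar, which in the mouse encodes a SET domain protein without the transposase part that primates have, was the least abundant of the 10. It had 38 and 48 counts in WT, against 14 and 43 in Setd2-CD4 cre, with exact Poisson 95% intervals of 26.9 to 52.2, 35.4 to 63.6, 7.65 to 23.5 and 31.1 to 57.9. Only replicate 22 stood below the rest. The log2 fold change of -0.29 had a 95% interval of -1.44 to 0.85 (edgeR adjusted p = 0.673), and the Poisson intervals of the 2 Setd2-CD4 cre counts did not overlap. Without Setd2-CD4 cre 22 the log2 fold change was 0.27, and without Setd2-CD4 cre 24 it was -1.26 (edgeR adjusted p = 0.0457).

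Among the erasers, Kdm2b, which encodes the subunit that brings a Polycomb repressive complex (PRC1.1) to CpG islands, had the smallest p-value. It rose from 74.3 and 81.4 CPM in WT to 110.5 and 121 CPM in Setd2-CD4 cre (means 77.8 ± 5.04 and 116 ± 7.40, SD, n = 2 each). The log2 fold change was 0.57 (SE 0.12, edgeR adjusted p = 0.00987). By limma-trend on log2(FPKM + 1) the value was 0.35 (adjusted p = 0.0767), or 0.47 relative to the median of all genes, against 0.58 in the TMM fit. The call was also lost without WT 13 (log2 fold change 0.50) and without WT 15 (0.64), settings in which fewer of all genes were called. The paralog Kdm2a stood at 181 and 181 CPM in WT, against 146 and 174 CPM in Setd2-CD4 cre. Its genotypes did not overlap and replicate 22 was the lowest, with a log2 fold change of -0.17 (95% interval -0.45 to 0.10, edgeR adjusted p = 0.293). Without Setd2-CD4 cre 24 it was -0.30 (edgeR adjusted p = 0.0147), and without Setd2-CD4 cre 22 it was -0.045 (0.747).

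The count of Kdm2b relative to Kdm2a, in which library scaling cancels, was 0.410 and 0.451 in WT, against 0.755 and 0.693 in Setd2-CD4 cre. The ratio was thus 1.68 times as high, with no overlap. Per kb of transcript, Kdm2b made up 40.4 and 42.7% of the pair in WT, against 55.6 and 53.5% in Setd2-CD4 cre, so per kb of the longest coding transcript the more abundant paralog was Kdm2a in WT and Kdm2b in Setd2-CD4 cre. On the deposited FPKM scale, which uses other lengths, Kdm2a stood above Kdm2b in all 4 libraries.

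Kdm2b (ENSMUSG00000029475, chromosome 5, 122870665 to 122989823, minus strand) faces the opposite-strand gene A930024E05Rik (122989354 to 122998345), whose RefSeq start site lies 255 bases from a Kdm2b start site, the one of the window printed above. The 2 promoter windows share 246 bases. A930024E05Rik went from 264 and 222 counts in WT to 101 and 148 in Setd2-CD4 cre, or from 20.1 and 16.9 CPM to 9.84 and 13.6 CPM. It fell where Kdm2b rose (log2 fold change -0.66, SE 0.21, edgeR adjusted p = 0.0493), a call that lay at the threshold. It was lost by DESeq2 and with cyclic loess scaling, and also with WT 13 left out (-0.53, edgeR adjusted p = 0.278), WT 15 left out (-0.78, 0.115) or Setd2-CD4 cre 22 left out. Kdm2b had 3.69 and 4.82 counts per count of A930024E05Rik in WT, against 11.2 and 8.91 in Setd2-CD4 cre. The exons of A930024E05Rik share 199 bases with those of Kdm2b, and since use of strand is not stated, reads there cannot be assigned to a gene.

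In all, 9 other models of the table overlap 1 of the 10 genes, and 5 of them passed the filter. Rnf34, a ubiquitin ligase gene that meets the end of Kdm2b on the opposite strand, stood at 40.5 and 38.5 CPM in WT, against 24.9 and 41.5 CPM in Setd2-CD4 cre (-0.25, edgeR adjusted p = 0.444), and replicate 22 was the lowest. Dap3, a mitochondrial ribosome gene that meets the start of Ash1l, stood at 63.4 and 63.4 CPM and at 82.1 and 70.4 CPM (0.27, edgeR adjusted p = 0.134). Gm38245 in Smyd2 had 12 and 9 counts in WT, against 10 and 5 in Setd2-CD4 cre (log2 fold change -0.17, edgeR adjusted p = 0.855). Gm43411 inside Kdm2b had 0 and 0 counts in WT, against 3 and 4 in Setd2-CD4 cre, where the exact Poisson 95% interval of a count of 0 reaches 3.69, and did not pass the filter. Gm37422, antisense to Smyd2, held 0 to 2 counts a library, and RP23-214I6.5 at Kdm2b and A230083N12Rik in Kdm4c held 0.

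Kdm4a (ENSMUSG00000033326, chromosome 4, 118136957 to 118180043, minus strand), which removes the trimethyl mark, rose from 105 and 111 CPM in WT to 151 and 138 CPM in Setd2-CD4 cre (means 108 ± 3.88 and 144 ± 9.46, SD, n = 2 each). The log2 fold change was 0.42 (SE 0.11, edgeR adjusted p = 0.0245), and DESeq2 gave 0.43 (adjusted p = 0.0186). The call was lost with upper-quartile factors (0.31, edgeR adjusted p = 0.0645) and library totals (0.27, 0.0955), which shift all genes, while the value relative to the median of all genes was 0.43 in these settings and in the TMM fit. With cyclic loess scaling it was 0.28, both as fitted and relative to the median (limma-voom adjusted p = 0.0935). It was also lost without WT 13 (0.38, edgeR adjusted p = 0.218) and without WT 15 (0.45, 0.162). Its paralogs did not pass. Kdm4b stood at 53.8 and 49.8 CPM in WT, against 46.0 and 49.1 CPM in Setd2-CD4 cre (-0.12, 95% interval -0.41 to 0.17, edgeR adjusted p = 0.477). Kdm4c, a gene of the same chromosome as Kdm4a, stood at 67.9 and 62.1 CPM in WT, against 66.4 and 73.8 CPM in Setd2-CD4 cre (0.11, interval -0.17 to 0.39, edgeR adjusted p = 0.519). With library totals it was -0.04, or 0.12 above the median of all genes, as in the TMM fit.

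The count ratio of Kdm4a to Kdm4b was 1.96 and 2.23 in WT, against 3.29 and 2.81 in Setd2-CD4 cre, and that of Kdm4a to Kdm4c was 1.55 and 1.78 against 2.28 and 1.87. Neither overlapped between genotypes. Per kb of transcript, Kdm4a made up 44.7 and 48.1% of the 3 Kdm4 genes in WT, against 55.6 and 51.1% in Setd2-CD4 cre. By contrast, the ratio of Setd2 to Nsd1 went the other way, with 0.637 and 0.581 in WT, against 0.522 and 0.467 in Setd2-CD4 cre. The ratios are given without a test, and an exact permutation of 2 libraries against 2 cannot give a two-sided p below 0.333.

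**Figure D4:**
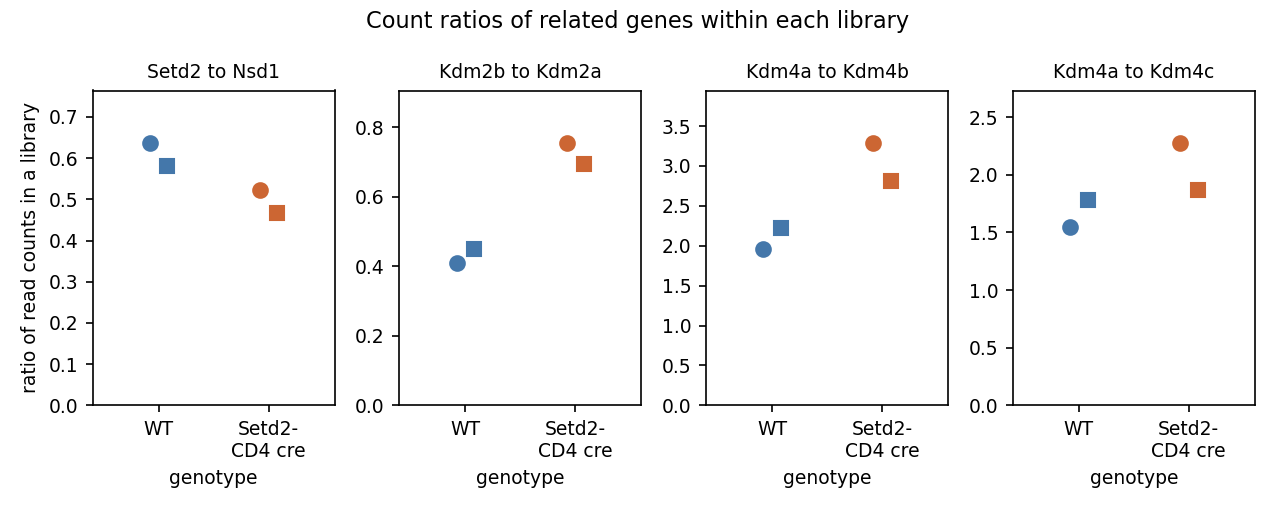
Ratio of read counts of 2 genes within a library, by genotype, for Setd2 to Nsd1, Kdm2b to Kdm2a, Kdm4a to Kdm4b and Kdm4a to Kdm4c (circles, replicates 13 and 22, squares, replicates 15 and 24). The first ratio is lower and the other 3 are higher in both Setd2-CD4 cre libraries, as for Kdm2b to Kdm2a with 0.410 and 0.451 against 0.755 and 0.693.

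The abundance of the enzymes relative to each other depended on the gene length used. The deposited FPKM (fragments scaled to gene length and library size) rests on 1 length per gene, and for 8 of the 10 genes that length equals the summed length of all distinct annotated exons, so that overlapping exon variants were counted more than once. The same held for 6449 of 9843 genes with at least 50 counts in each library (65.5%). For Setd2 the length was 20165 bases against 8350 in its longest coding transcript, for Kdm2b 18787 against 5180, and for Nsd1 12784 by both measures. In FPKM, Nsd1 led in WT (24.4 ± 1.04, SD, n = 2), Setd2 stood at 9.40 ± 0.20 and Kdm2b ranked 9 of 10 at 4.36 ± 0.31.

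Per kb of the longest coding transcript in GENCODE M21, the WT order began with Kdm4a (23.2 ± 0.83 CPM per kb), Nsd1 (23.1 ± 0.82), Setd2 (21.6 ± 0.62) and Kdm2a (21.1 ± 0.05), with SD and n = 2 for each. Kdm4a overlapped Nsd1, Setd2 lay below Nsd1 in every WT library, and Setd2 differed from Kdm2a by less than its own SD. Kdm4c (15.5 ± 0.98) and Kdm2b (15.0 ± 0.97) came next and overlapped each other, as did Kdm4b (11.3 ± 0.61), Ash1l (11.2 ± 0.94) and Smyd2 (9.95 ± 2.20). Setmar stood apart at 2.03 ± 0.33. In Setd2-CD4 cre, Kdm4a (31.0 ± 2.03) and Nsd1 (23.6 ± 2.86) again led, and Kdm2b (22.3 ± 1.43) ranked 3 and overlapped Nsd1. Setd2 (17.8 ± 0.77) ranked 5, behind Kdm2a (18.7 ± 2.31). Below them came Kdm4c (16.7 ± 1.24), Ash1l (12.1 ± 2.39), Kdm4b (10.4 ± 0.48), Smyd2 (6.02 ± 1.25) and Setmar (1.65 ± 1.13), and neighbours from Kdm2a to Kdm4b differed by less than their larger SD, apart from Kdm4c and Ash1l. Among the 5 writers, Setd2 made up 33.0 and 30.5% of the summed level per kb in WT, against 30.2 and 28.0% in Setd2-CD4 cre.

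**Figure D5:**
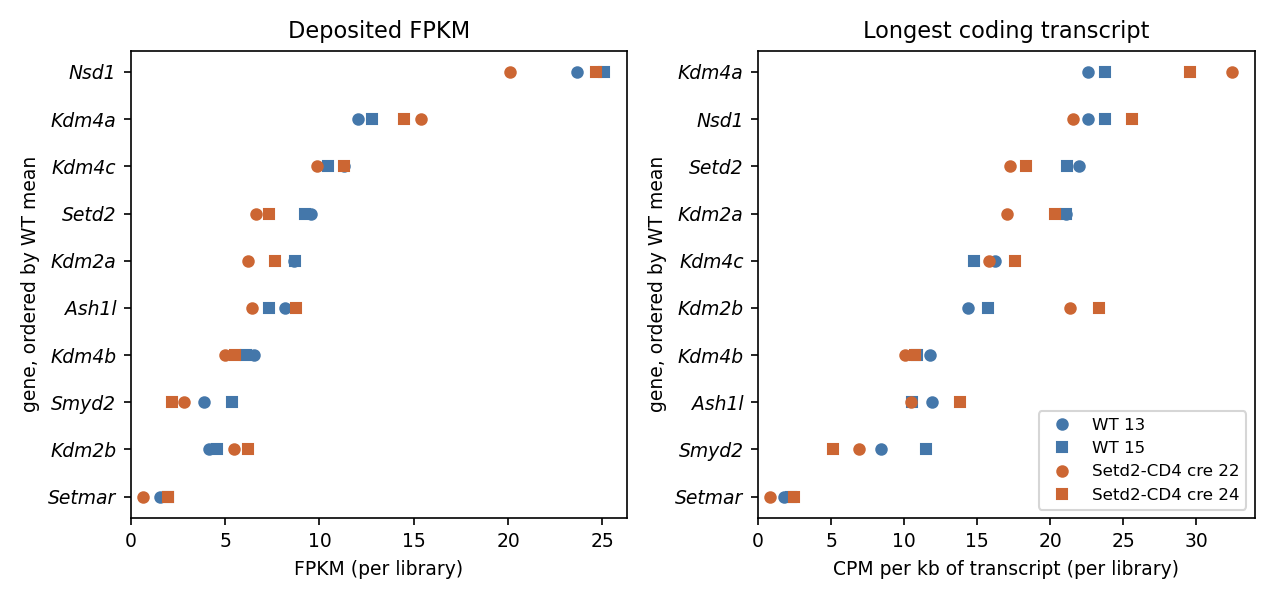
Level of each gene in each library as deposited FPKM (left) and as TMM-scaled CPM per kb of its longest coding transcript (right), ordered by WT mean. Setd2 lies well below Nsd1 on the left (9.40 and 24.4 FPKM in WT) and close to it on the right (21.6 and 23.1 CPM per kb).

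Other genes reported to write or erase H3K36 methylation were taken as a list of 9, under the older symbols that the table uses in part. Of these, 2 rose and none fell, with a median log2 fold change of -0.08. Whsc1l1, the older symbol of the dimethyltransferase gene Nsd3, went from 527 and 469 CPM to 690.4 and 730.4 CPM (0.51, SE 0.12, edgeR adjusted p = 0.0157), and Smyd3 from 25.5 and 22.6 to 35.8 and 39.2 CPM (0.64, SE 0.14, edgeR adjusted p = 0.0142). Whsc1, now Nsd2, stood at 236 and 215 CPM in WT, against 230.0 and 268 CPM in Setd2-CD4 cre (0.14, edgeR adjusted p = 0.378). Prdm9, best known from meiosis, stood at 18.3 and 16.2 against 13.2 and 11.002 CPM (-0.52, edgeR adjusted p = 0.0696), Kdm4d at 1.14 and 0.914 against 0.487 and 0.458 CPM (-1.11, 0.178), and Kdm8 at 6.71 and 9.75 against 6.14 and 6.23 CPM (-0.41, 0.269). Setd3, which acts mainly on actin, had 0.41 (edgeR adjusted p = 0.0949), Riox1, listed as 2410016O06Rik, -0.68 (0.0632) and Riox2, listed as Mina, -0.08 (0.628) as log2 fold changes. With library totals, Riox1 (-0.83, edgeR adjusted p = 0.0303) and Prdm9 (-0.67, 0.0279) passed as lower and Whsc1l1 missed the threshold (0.36, 0.0510). Relative to the median of all genes these values were -0.67, -0.51 and 0.52, as in the TMM fit. Whsc1l1 also missed the threshold with cyclic loess (0.29, limma-voom adjusted p = 0.0834). By limma-trend neither Whsc1l1 (0.35, adjusted p = 0.0550) nor Smyd3 (0.33, 0.104) passed. Both calls were lost without WT 13 (Whsc1l1 0.59, edgeR adjusted p = 0.0876, and Smyd3 0.73, 0.0662) and without WT 15 (0.43, 0.223, and 0.56, 0.162).

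Among 22 genes of Setd2 partners and transcription elongation, 2 rose, 3 fell and 17 did not pass (median log2 fold change 0.08). Ccnk, the cyclin gene of the kinases Cdk12 and Cdk13, went from 75.3 and 65.8 to 154 and 129.6 CPM (1.01, SE 0.13, edgeR adjusted p = 0.00208). Polr2a, the gene for the large subunit of RNA polymerase II, to whose tail Setd2 binds, fell from 360.04 and 352 to 213 and 251 CPM (-0.62, SE 0.12, edgeR adjusted p = 0.00802). Supt16, a subunit gene of the histone chaperone FACT, also fell (-0.56, edgeR adjusted p = 0.0121). Of 10 genes of the Kdm2b complex and its partner Skp1, none rose and 1 fell (median 0.24). That gene was Skp1a, whose product binds the F-box of Kdm2a and Kdm2b, at 189 and 179.8 CPM in WT and 94.6 and 101 CPM in Setd2-CD4 cre (log2 fold change -0.91, SE 0.11, edgeR adjusted p = 0.00153).

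Of 20 readers of H3K36 methylation, 2 rose and 4 fell (median 0.00). Morf4l1, the gene of the chromodomain protein MRG15 that partners Ash1l, rose (0.73, SE 0.12, edgeR adjusted p = 0.00403), as did its relative Morf4l2 (1.05, 0.00167), whereas Mum1 (-1.04, 0.00368) and the Polycomb cofactor gene Phf19 (-0.56, 0.0211) fell. Of 10 genes of histone H3.3 and its chaperones, 2 rose and 4 fell (median -0.07). The H3.3 genes H3f3a (-0.44, edgeR adjusted p = 0.0203) and H3f3b (-0.45, 0.0169), which have near-identical pseudogenes that could share reads, fell, as did the chaperone gene Asf1b, which is linked to DNA replication (-1.46, 0.000915), and Cabin1 rose (0.49, 0.0116).

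Histone methyltransferases use S-adenosylmethionine, and the demethylases of this set use 2-oxoglutarate. Of 15 genes of S-adenosylmethionine supply 1 rose and 1 fell (median -0.19). Mat2b, the regulatory subunit gene of the synthetase, rose (0.49, edgeR adjusted p = 0.0155), and Shmt1, a gene of serine-derived one-carbon units, fell (-0.86, 0.0473). Of 19 genes of 2-oxoglutarate metabolism 3 rose and 1 fell (median -0.10). Got1 (0.65, edgeR adjusted p = 0.007) and Idh3g (0.43, 0.0484) were among those that rose, and the fumarase gene Fh1 fell (-0.47, 0.0423). Over all 7 lists 12 of 105 genes rose and 14 fell, both smaller shares than the 16.2% and 14.5% of all genes tested. Those counts changed with 1 library left out, and so did the number of called genes among all genes tested. Of the genes named from the last 6 lists, Polr2a, Supt16, Phf19, Mat2b, Shmt1, Fh1, Idh3g, Cabin1, H3f3a and H3f3b missed the threshold both without WT 13 (edgeR adjusted p = 0.0549 to 0.179) and without WT 15 (0.0523 to 0.383). Morf4l1 (0.65, edgeR adjusted p = 0.0541) and Got1 (0.56, 0.0984) did so without WT 15. Ccnk, Skp1a, Morf4l2, Mum1 and Asf1b passed in each of the 10 other settings. The call of Idh3g was also lost by DESeq2 (0.44, adjusted p = 0.0506), by limma-trend and with upper-quartile factors, library totals and cyclic loess. Fh1 and Shmt1 also missed the threshold by DESeq2 (-0.46, adjusted p = 0.0832, and -0.85, 0.0763). With cyclic loess they did so too (-0.41, limma-voom adjusted p = 0.0693, and -0.59, 0.145).

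The 5 tested genes closest to Setd2 in their profile, by the root mean square difference of log2 CPM centred over the 4 libraries, were St14 (0.0083), Twf2 (0.00962), Pik3r4 (0.00995), Rdm1 (0.0115) and Gse1 (0.0119). With 4 libraries such likeness describes these libraries and carries no test. The choice itself set their log2 fold changes near that of Setd2 (-0.28 to -0.27). That none of the 5 passed the threshold (edgeR adjusted p = 0.0856 to 0.144) is therefore no separate finding.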

How the data were processed

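RNA-seq libraries of day 3 Th17 cultures were compared by genotype as labelled, with the numbers in the sample titles as replicate names. One title begins with 15 and its cell type label with 14, and the title was followed. Per the file headers, the authors gave 2 values per gene and library, a read count (whole in every row) and FPKM. Bowtie2, RSEM, GRCm38.p6 and mm10 are named in the submitters' processing notes, without versions or roles. Rounding of counts, use of strand and treatment of shared reads are not given in these sources. RSEM estimates need not be whole.

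The deposited counts went unchanged into edgeR 4.0.16 (R 4.3.3; TMM factors 1.05, 1.06, 0.934 and 0.964 in the order WT 13, WT 15, Setd2-CD4 cre 22 and 24; filterByExpr; glmQLFit with robust estimation), with p-values adjusted by Benjamini-Hochberg across 12927 genes. Alternatives used DESeq2 1.42.0 and limma 3.58.1, the latter on log2(FPKM + 1) with a pseudocount of 1 or as voom. Replicates differed by more than counting noise (chi-square per degree of freedom 8.77 in WT and 18.6 in Setd2-CD4 cre). Coordinates of all 10 genes equal those of GENCODE M21 (GRCm38), used for exons and lengths. The genes and lists were chosen with earlier results of these data known. Named genes are all 10 members, overlapping models, the 9 further H3K36 enzymes, up to 4 called genes per list by smallest p, and the 5 profiles nearest to Setd2. Some called genes of the lists are counted but not reported here by name. Poisson intervals cover counting error only.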

Additional observations from a re-analysis of the deposited data

How the results depend on the processing

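No paired analysis was possible because the genotypes share no replicate number. Setd2 passed the threshold at -0.39 with upper-quartile factors, -0.43 with library totals, -0.44 with cyclic loess and -0.38 by limma-trend, and ranged from -0.32 to -0.23 with 1 library left out. Signs turned, in the order of those 4 settings, for Nsd1 (-0.084, -0.12, -0.17 and -0.12), with all but upper-quartile factors for Ash1l (-0.035, -0.042 and -0.043) and Whsc1 (-0.0045, -0.042 and -0.0079), and with all but loess for Kdm4c (-0.0022, -0.041 and -0.040). With 1 library left out the ranges were -0.10 to 0.15 for Nsd1, -0.10 to 0.31 for Ash1l, -1.26 to 0.27 for Setmar, -0.78 to 0.28 for Gm38245 and -0.66 to 0.079 for Rnf34. Of the 10 genes, the number called higher was 1 with upper-quartile factors, 1 with library totals, 1 with loess and 0 by limma-trend (0 to 3 with 1 library left out), and the number called lower 2, 2, 1 and 2, and 1 with no filter (0 to 3). Of all genes, 1267 were higher by limma-trend (718 to 3068 with 1 library left out) and 2879 lower with library totals (564 to 2903). Over the 7 lists, 6 were higher with library totals and 4 by limma-trend (2 to 24), and 23 were lower with upper-quartile factors and 27 with library totals (3 to 20). The causes were not tested. Over 10 genes and 10 settings, 64 of 100 values kept direction and side of the threshold, 9 lost the call, 13 gained it and 14 turned. For 33 other named genes it was 254, 57, 13 and 6 of 330. DESeq2 turned no sign among the 10 genes. With 1 library left out, the lone library of that genotype is assumed to vary like the other genotype's. Over all genes, fewer were called with either WT library left out and more with either Setd2-CD4 cre library left out. A call lost without a WT library is therefore not particular to the gene named.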
